A study of Mus musculus with 30 samples.

Results

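Mouse secondary iPSCs that had been differentiated for 96 h were re-seeded for 48 h in serum/LIF, without dox (–dox) or with dox (+dox), and their polyadenylated RNA was sequenced. The comparison addresses how expression differs when OSKM is induced in cells that began to leave pluripotency 96 h earlier. It rests on 4 of the 30 samples of the study, 2 replicates of 96 h –dox and 2 of 96 h +dox, and on the 12688 of 22477 listed genes that reached 1 FPKM in either condition. The other samples are a time course of 2i/LIF withdrawal at 0, 24, 36, 48, 60, 72 and 96 h and cells re-seeded in the same way after 0, 24 or 48 h. All cells, those without dox included, carry dox-inducible transgenes for Oct4, Sox2, Klf4 and cMyc, GFP at the endogenous Nanog locus and a constitutive nuclear RFP. They were maintained with LIF on feeders of mouse embryonic fibroblasts (MEFs). Before withdrawal they were moved to serum-free medium with 2i/LIF and plated as single cells on gelatin, with no feeders mentioned. For the colony assay, the study's methods describe re-seeding onto such MEFs at low density in medium with serum and LIF, without or with dox. Whether the RNA-seq cultures were re-seeded onto MEFs too is not stated separately. The cells are a single engineered line of induced pluripotent cells, and the differentiation is that of a culture without 2i/LIF.

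OCT4, SOX2, KLF4 and MYC are the transcription factors whose forced expression returns somatic cells to pluripotency. OCT4 (gene Pou5f1) and SOX2 bind DNA together at enhancers of pluripotent cells, KLF4 acts in pluripotent cells and in epithelia, and MYC drives growth and proliferation. In naive cells they work with NANOG, ESRRB, TFCP2L1 and KLF2 in a network that supports itself, which the 2 inhibitors of 2i and the cytokine LIF stabilise. When 2i/LIF is withdrawn this network is switched off, and the cells pass through a formative state into early lineages.

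In +dox, 846 genes were at least 2-fold higher than in –dox, 6.67% of the 12688 genes, and 1404 were at least 2-fold lower, 11.1%. The other 10438 genes differed by less. FPKM is a fragment count scaled to transcript length and library size. The deposited table gives 1 value per gene and condition, into which the authors had already merged the replicates, so neither an error nor a significance test can be attached to any value below. "Higher" and "lower" describe the deposited values alone. The median log2 ratio of +dox to –dox was -0.01, with 5% of genes below -1.77 and 5% above 1.13. At least 8-fold, 85 genes were higher and 249 lower, and with the higher value at 10 FPKM or more these counts were 17 and 37. Another 15 genes were listed at 0 in –dox and 29 in +dox while at 1 FPKM or more in the other condition, and they have no ratio. Summed over all genes, the values came to 675000 FPKM in –dox, against 764104 FPKM in +dox. If both are set to the same sum, every log2 ratio shifts by -0.18 and 568 genes are higher and 1730 lower, so that the share of lower genes among those that differ moves from 62.4% to 75.3%.

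**Figure D1:**
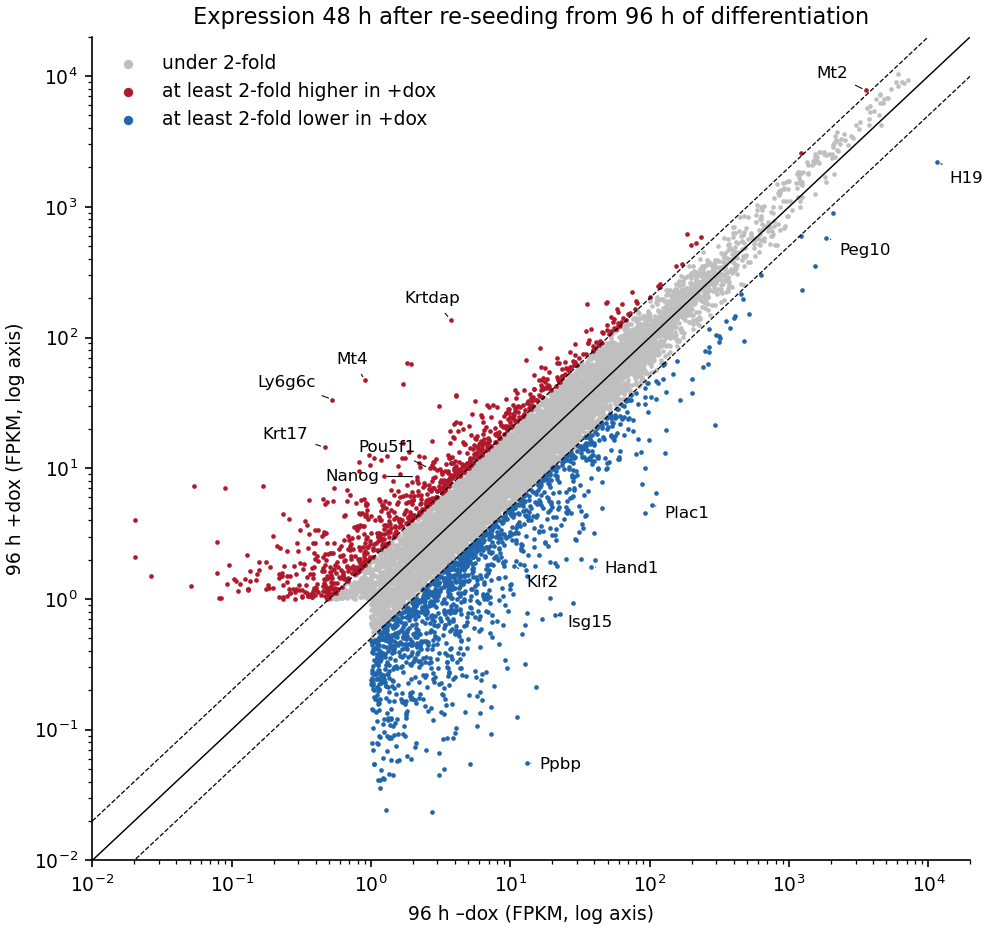
FPKM in 96 h –dox (x axis) against 96 h +dox (y axis), both on log axes, for genes that reached 1 FPKM in one condition and were above 0 in both. Red points are at least 2-fold higher and blue points at least 2-fold lower in +dox (dashed lines), and the solid line marks equal values. H19 lies below the solid line at the top right, at 11602 FPKM in –dox against 2214 FPKM in +dox, and the cloud of blue points is wider than that of red points.

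Differences of 2-fold were more frequent among low values. Of the 1257 genes whose higher value lay between 1 and 2 FPKM, 15.5% were higher and 28.7% lower in +dox, and of the 2329 genes at 50 FPKM or more, 3.82% were higher and 4.42% lower. In FPKM times length in kb, a 2 kb gene at 1 FPKM stood at about 33.6 times a low nonzero value in –dox and 39.3 times in +dox. That low value had a share of 0.05 of the genes examined below it. These genes had 1 annotated transcript of at least 2.5 kb and a nonzero product under 1. The comparison is only a rough guide to depth, since the table holds no counts. In RNA from a whole culture, fewer cells of a type and less RNA per cell cannot be told apart, and this holds for every group of genes below.

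The targeted genes come first. The files do not separate transgene from endogenous transcripts, so the values of the 4 OSKM genes add up both wherever both map to the gene. Pou5f1, on chromosome 17 of mm10 from 35506018 to 35510772, was at 2.63 FPKM in –dox and 9.95 FPKM in +dox, 3.78-fold higher. Sox2 was at 16.3 and 19.6 FPKM, a log2 ratio of 0.27. Klf4 was at 11.4 and 11.6 FPKM, a log2 ratio of 0.02. Myc was at 57.6 FPKM in –dox and 36.1 FPKM in +dox, a log2 ratio of -0.68. So 1 of the 4 genes was at least 2-fold higher with dox, and the values of the other 3 do not show the induction that the label names. With both conditions set to the same sum, the ratio of Klf4 turns below 1 and that of Pou5f1 and Sox2 does not. The levels in +dox were also far from those of pluripotent cells, since Pou5f1 was at 199.3 FPKM at 0 h of the time course and 25.5 FPKM in the 96 h cells before re-seeding.

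**Figure D2:**
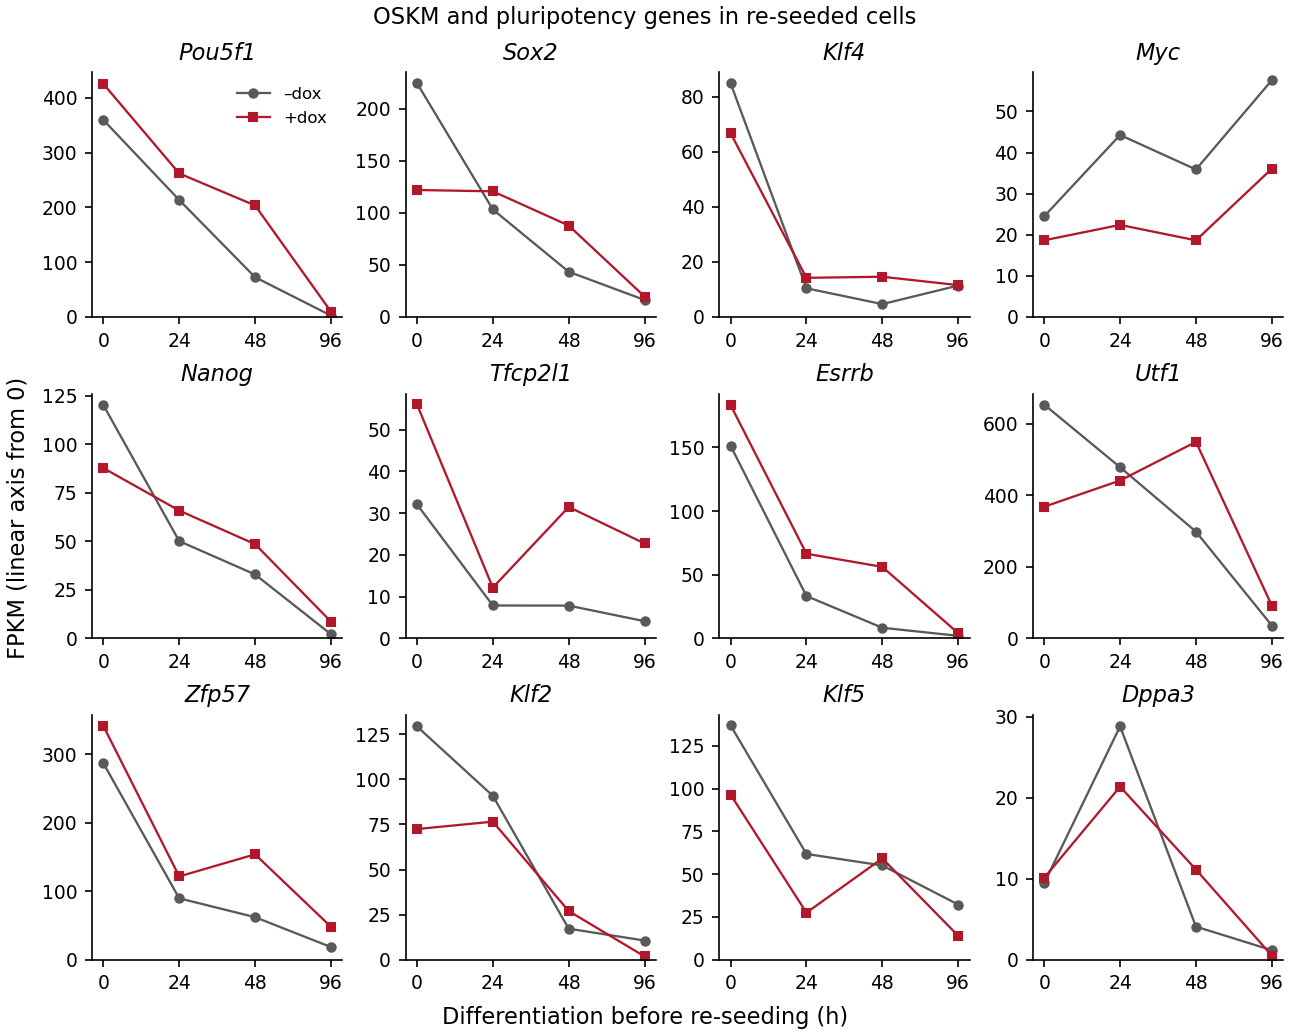
FPKM (y axis, linear from 0) of 12 genes in cells re-seeded after 0, 24, 48 or 96 h of differentiation (x axis), without dox (grey circles) and with dox (red squares), with 1 combined value per point and lines that only join the points. At 96 h Pou5f1, Nanog and Esrrb lie near the bottom of their axes in both conditions, Tfcp2l1 is at 22.7 FPKM in +dox, and Klf2 is at 1.80 FPKM in +dox and 10.6 FPKM in –dox.

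The naive pluripotency genes differed in both directions. Of 20 genes in the list, 16 reached 1 FPKM, 5 of them were at least 2-fold higher in +dox, 4 at least 2-fold lower and 7 neither, with a median log2 ratio of -0.01. The sign of this median changes with the scaling. Over all 12688 genes, the shares were 6.67% higher and 11.1% lower, for this list and each list below. Nanog, the gene that carries the reporter, was at 2.13 FPKM in –dox and 8.63 FPKM in +dox. Tfcp2l1, a factor downstream of LIF, was at 4.11 and 22.7 FPKM, 5.54-fold higher, and Esrrb, a nuclear receptor of the naive network, was at 1.98 and 4.06 FPKM. Fbxo15, a classic target of OCT4 and SOX2, was at 1.61 and 6.07 FPKM. Zfp57, which protects imprints, was at 18.4 and 48.0 FPKM.

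Against these, Klf2 was lower, at 10.6 FPKM in –dox and 1.80 FPKM in +dox, 5.90-fold. Klf5 was at 32.2 and 13.96 FPKM, Tbx3 at 4.99 and 1.53 FPKM, and Dppa3, a maternal factor also used as a marker of naive cells, at 1.17 and 0.497 FPKM. Zfp42 (Rex1), at 8.54 and 7.26 FPKM, and Dppa5a, at 51.5 and 55.1 FPKM, differed by less than 2-fold. The list summed to 171.2 FPKM in –dox and 196.6 FPKM in +dox, against 6511 FPKM at 0 h and 269.6 FPKM in the 96 h cells. Its levels in both re-seeded conditions thus lay below those of the cells that had been re-seeded. After 48 h of differentiation the same list had 13 of 19 genes higher in +dox and 0 lower, where 6.56% of all genes tested were higher and 6.46% lower. The difference between 48 and 96 h was not tested.

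Most genes shared by naive and later pluripotency differed by less than 2-fold. Of 17 at 1 FPKM or more, 2 were higher, 1 was lower and 14 were neither, with a median log2 ratio of -0.09. Their shares were 11.8% higher and 5.88% lower, against 6.67% and 11.1% of all genes. Utf1, a chromatin protein of pluripotent cells, was at 35.8 FPKM in –dox against 91.5 FPKM in +dox, and Tdh, a threonine dehydrogenase of pluripotent cells, was at 2.74 and 10.5 FPKM. Lin28a, an RNA-binding protein that blocks let-7, was at 67.9 and 118.3 FPKM, and Sall4 at 59.9 and 51.9 FPKM. Of 13 formative genes, Etv5 was higher, at 4.73 and 15.3 FPKM, and Lef1, Sox3 and Fgf15 were lower. Otx2, at 16.1 and 24.5 FPKM, was among the 9 that were neither.

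**Figure D3:**
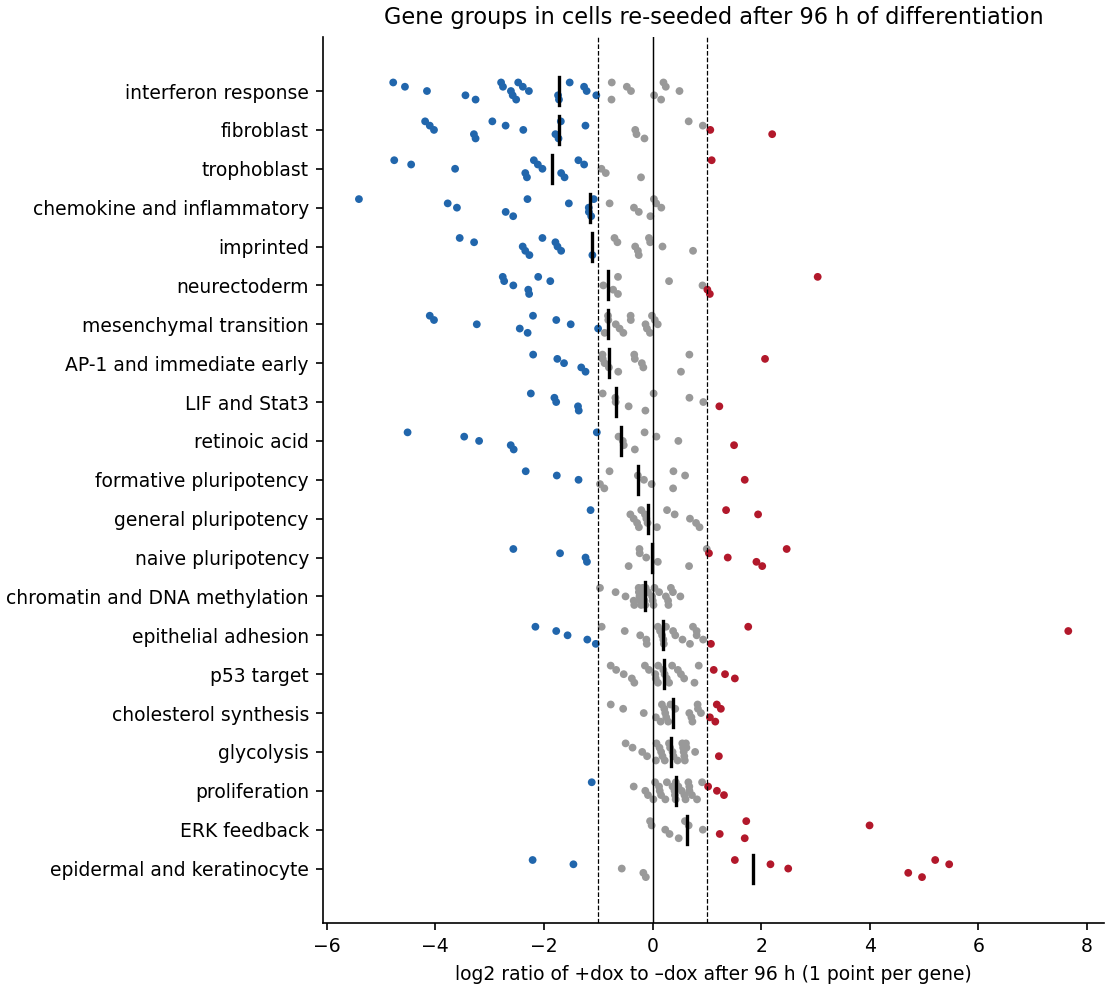
The log2 ratio of +dox to –dox after 96 h (x axis) for the members of 21 gene groups (rows) that reached 1 FPKM, 1 point per gene. Red and blue points are at least 2-fold higher and lower, dashed lines mark 2-fold, black bars the median of the row, and genes listed at 0 are left out. The medians run from -1.85 in the trophoblast row to 1.84 in the epidermal row.

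Trophoblast genes, which act in the cells that form the placenta, were the group with the lowest median among those drawn. Of 17 genes, 16 reached 1 FPKM, 12 were lower in +dox, 1 was higher and 3 were neither, a median log2 ratio of -1.85. The shares were 75% lower and 6.25% higher, against 11.1% and 6.67% of all genes. Peg10, Igf2 and Phlda2, described with the imprinted genes, are members of this list too. Its sum was 3063 FPKM in –dox, 904.2 FPKM in +dox and 342.7 FPKM in the 96 h cells. Most of both re-seeded sums came from Peg10, at 1855 and 578.2 FPKM, Igf2, at 474.0 and 93.5 FPKM, and Phlda2, at 240.7 and 59.1 FPKM. Ascl2, a factor that maintains spongiotrophoblast, was at 40.0 FPKM in –dox and 3.22 FPKM in +dox, 12.4-fold lower. Hand1, a factor of giant cells, was at 38.2 and 1.76 FPKM, 21.7-fold lower. Tfap2c was at 82.5 and 16.6 FPKM, and Gata2 at 49.7 and 10.9 FPKM. The early trophoblast factors Cdx2, at 1.27 and 0.293 FPKM, and Elf5, at 3.44 and 1.34 FPKM, were low in –dox also. The giant cell hormone Prl3d1 did not reach 1 FPKM in either condition and was listed at 0 in +dox. Tead4, which is needed for the first trophoblast cells, was the member that was higher, at 10.8 and 23.0 FPKM.

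Other families with placental members were picked by the start of their symbol after the values were seen. Not every member is a gene of the placenta. Their genes at 1 FPKM or more were mostly lower as well. All 7 Serpinb9 genes of the table, serine protease inhibitors, were lower, with Serpinb9e at 28.3 FPKM in –dox against 0.927 FPKM in +dox, and Serpinb9g at 12.8 and 0.317 FPKM. Of 17 genes of the placental prolactin family, 4 reached 1 FPKM. These were Prl2a1, Prl2c5, Prl4a1 and Prl7d1, lower by between 8.69-fold and 27.9-fold. Their values in –dox lay between 2.07 and 6.97 FPKM. Of 23 Rhox homeobox genes, 5 reached 1 FPKM, of which Rhox4d, Rhox6, Rhox9 and Rhox13 were lower and Rhox5 was neither. None of 11 Psg genes reached 1 FPKM, and of 9 placental cathepsin genes only Ctsj did, which was lower. Members of these families are near copies of each other, so reads may have been shared among them, and the split between members is uncertain.

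Imprinted genes, of which only the maternal or the paternal copy is active and many of which act in placenta and fetal growth, were lower in 10 of 19 cases and higher in 0. Their median log2 ratio was -1.11, and 52.6% were lower, against 11.1% of all genes. H19, a long noncoding RNA, was the most abundant of the genes that differed by at least 2-fold, at 11602 FPKM in –dox and 2214 FPKM in +dox. Its neighbour Igf2, a growth factor, was at 474.0 and 93.5 FPKM. Cdkn1c, an inhibitor of the cell cycle, was at 128.0 and 13.1 FPKM, 9.74-fold lower, and Phlda2, which limits placental growth, at 240.7 and 59.1 FPKM. On chromosome 7 of mm10, H19 starts at 142575529 and Phlda2 ends at 143503150. Of the 10 genes at 1 FPKM or more between these positions, a stretch chosen after the values were seen, 7 were lower and 0 higher. Cd81, in the middle of this stretch, was at 165.8 FPKM in –dox and 249.2 FPKM in +dox, a log2 ratio of 0.59.

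At other imprinted loci, neighbours differed unequally. Dlk1, a Notch-like ligand on chromosome 12, was at 88.8 FPKM in –dox and 7.59 FPKM in +dox, 11.7-fold lower. The noncoding RNAs of the same domain were nearly level, with Meg3 at 84.2 and 80.4 FPKM and Rian at 169.8 and 142.4 FPKM. Peg10, a gene of retroviral origin that the placenta needs, was at 1855 and 578.2 FPKM, 3.21-fold lower, and Sgce, which adjoins it on chromosome 6, was at 93.6 and 106.3 FPKM. Nnat was at 266.5 and 77.2 FPKM and Peg3 at 312.0 and 92.8 FPKM.

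The share of lower genes was larger on the X chromosome than on any autosome, though not their number. Of its 433 genes at 1 FPKM or more, 73 were lower, 16.9%, against 6.34% to 13.1% on the 19 autosomes, and 22 were higher, 5.08%, against 3.98% to 8.29%. At 50 FPKM or more in –dox, 16 X-linked genes were lower. Plac1, a placental surface protein, was at 103.2 FPKM in –dox against 5.23 FPKM in +dox, and Ldoc1, of retroviral origin, at 92.2 and 4.53 FPKM. Nrk, a kinase of spongiotrophoblast, was at 111.0 and 6.52 FPKM, 17.0-fold lower, and Rhox6 at 378.9 and 118.0 FPKM. The trophoblast gene Esx1 is X-linked too, at 38.9 and 12.7 FPKM. The chromosome was examined after the gene values were seen.

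**Figure D4:**
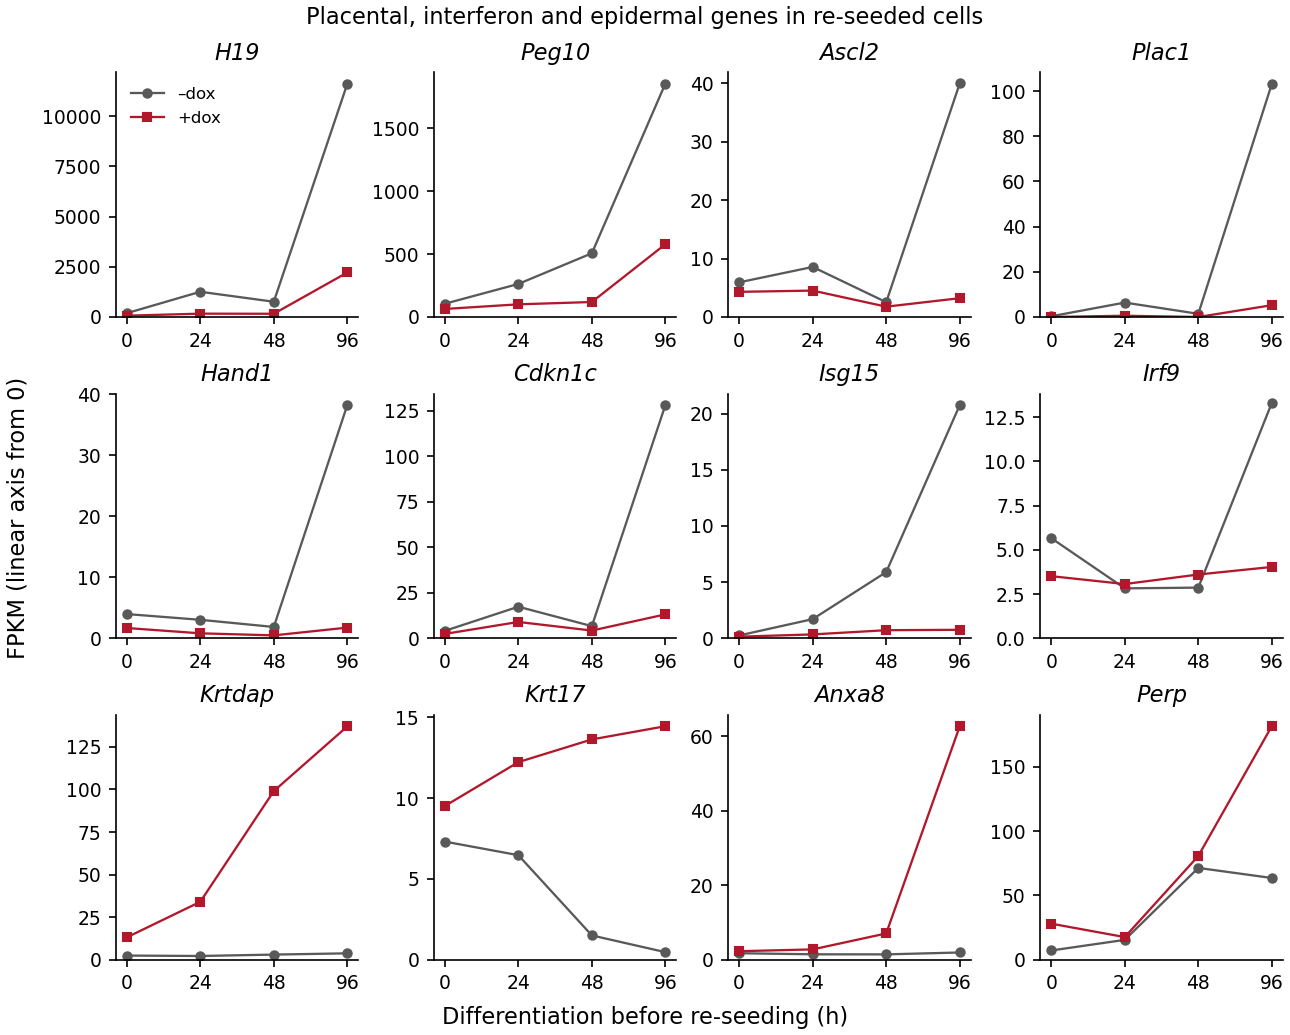
FPKM (y axis, linear from 0) of 12 genes in cells re-seeded after 0, 24, 48 or 96 h of differentiation (x axis), without dox (grey circles) and with dox (red squares), with 1 combined value per point and lines that only join the points. H19, Peg10, Ascl2, Plac1, Hand1, Cdkn1c, Isg15 and Irf9 have their highest point in 96 h –dox, and Krtdap, Krt17, Anxa8 and Perp in 96 h +dox.

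Interferon response genes, which cells switch on after contact with interferon, were lower in 19 of 28 cases and higher in 0. Their median log2 ratio was -1.73, and 67.9% were lower, against 11.1% of all genes. Isg15, a ubiquitin-like modifier, was at 20.8 FPKM in –dox and 0.759 FPKM in +dox, 27.3-fold lower. Irf7, the factor that amplifies the response, was at 3.27 and 0.184 FPKM, and Irf9, a DNA-binding factor of the response, at 13.3 and 4.03 FPKM. Of the guanylate-binding proteins, Gbp2 was at 24.3 and 4.08 FPKM, and Gbp5 at 15.96 and 3.30 FPKM. B2m, the light chain of MHC class I, was at 399.3 and 407.4 FPKM, and the antigen transporter Tap1 at 7.37 and 8.47 FPKM. With the higher value at 10 FPKM or more, 8 of the 19 remained. Values of Gbp and Oas genes are uncertain where near copies share reads.

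Promoters of these genes often hold the interferon-stimulated element, searched here as GAAA, any 2 bases and GAAA again, on both strands and with overlapping matches counted. Within 250 bases upstream of the start in RefSeq on GRCm38.p6, taking the most upstream start of each gene, 11 of the 18 lower interferon genes with a promoter in the table held it. So did 3 of the 9 that were neither, and 823 of all 27025 promoters, 3.05%. The list was made of genes known for this response, so the share describes the list and was not set against the effect of dox. The 150 bases upstream of 4 of the lower genes follow, 5′ to 3′ on the strand of the gene, with the matches in capitals, to show how close the elements lie to the start.
Isg15, chr4:156200819-156200968, minus strand: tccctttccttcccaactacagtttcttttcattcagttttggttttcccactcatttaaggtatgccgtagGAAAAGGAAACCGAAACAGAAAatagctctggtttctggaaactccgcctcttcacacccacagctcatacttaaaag
Ifit1, chr19:34640739-34640888, plus strand: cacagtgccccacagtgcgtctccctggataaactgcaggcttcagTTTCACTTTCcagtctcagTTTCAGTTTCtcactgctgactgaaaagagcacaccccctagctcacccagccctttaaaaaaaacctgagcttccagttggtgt
Gbp3, chr3:142559894-142560043, plus strand: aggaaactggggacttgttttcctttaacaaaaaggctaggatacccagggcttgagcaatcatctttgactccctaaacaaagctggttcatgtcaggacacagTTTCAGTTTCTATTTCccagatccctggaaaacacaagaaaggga
Irgm1, chr11:48871421-48871570, minus strand: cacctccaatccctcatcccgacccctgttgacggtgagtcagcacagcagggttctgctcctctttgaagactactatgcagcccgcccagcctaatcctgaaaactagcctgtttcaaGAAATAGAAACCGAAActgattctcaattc
In Isg15 there are 3 overlapping matches that begin 78, 72 and 66 bases before the start, and the other genes hold 2 each. Ifit1, an RNA sensor, was at 2.78 FPKM in –dox and 0.118 FPKM in +dox. Irgm1, an immunity-related GTPase, was at 4.92 and 0.730 FPKM, and Gbp3 at 3.87 and 0.679 FPKM. All 4 were lower with dox, and a match is a description of these letters, not a bound site.

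Chemokine and inflammatory genes were lower in 11 of 18 cases, 61.1% against 11.1% of all genes, and higher in 0. Cxcl12, the ligand of CXCR4, was at 19.9 FPKM in –dox against 3.06 FPKM in +dox, and Csf1, the macrophage growth factor, at 34.3 and 15.2 FPKM. Cxcl10 was at 5.13 and 0.867 FPKM, Lcn2 at 4.01 and 0.0948 FPKM, and complement C3 at 4.59 and 0.379 FPKM. Genes of the NF-κB pathway itself were nearly level, such as Nfkbia at 85.8 and 83.5 FPKM. With the higher value at 10 FPKM or more, 3 of the 11 remained.

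Fibroblast genes were lower in 12 of 19 cases and higher in 2, a median log2 ratio of -1.73. The shares were 63.2% lower and 10.5% higher, against 11.1% and 6.67% of all genes. Col1a2 was at 86.0 FPKM in –dox and 13.2 FPKM in +dox, Col1a1 at 33.2 and 3.47 FPKM, Postn at 9.91 and 1.28 FPKM, and Pdgfrb at 7.37 and 0.755 FPKM. Fstl1 was nearly level, at 38.6 and 34.9 FPKM, and Dcn was higher, at 0.791 and 3.64 FPKM. The 24 genes summed to 246.5 FPKM in –dox and 98.4 FPKM in +dox, with Dpt listed at 0 in both and Fap in +dox only among the defining genes. The sum was 77.4 FPKM in the 96 h cells, between 42.4 and 88.0 FPKM in the cells re-seeded after 0, 24 or 48 h, and 1177 FPKM at 0 h of the time course, where Col1a1 stood at 228.7 FPKM. With the higher value at 10 FPKM or more, 2 of the 12 lower genes remained. The line is kept on fibroblast feeders and was plated on gelatin before 2i/LIF was withdrawn. In the colony assay cells were re-seeded onto feeders. The part of feeder RNA in any of these values was not tested.

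Of the genes of mesenchymal transition, 9 of 23 were lower, 39.1% against 11.1% of all genes, and 0 higher. Some members are in the fibroblast list also. Vim, the intermediate filament of mesenchyme, was at 299.0 FPKM in –dox and 105.3 FPKM in +dox, Mmp14, a matrix protease, at 42.6 and 12.5 FPKM, and Tgfb2 at 19.1 and 3.52 FPKM. Of the transcription factors that drive the transition, Snai1, at 10.8 and 6.16 FPKM, and Zeb2, at 5.49 and 3.61 FPKM, differed by less than 2-fold, as did Snai2, Twist1 and Zeb1. Twist2 was lower, at 3.24 and 0.189 FPKM. Of 24 contractile genes and targets of SRF or YAP, 2 were higher, 3 lower and 19 neither. Their shares, 8.33% higher and 12.5% lower, lay near the 6.67% and 11.1% of all genes. Acta2 was at 255.2 and 193.0 FPKM, and the YAP targets Ankrd1, at 4.14 and 4.67 FPKM, and Amotl2, at 154.5 and 192.2 FPKM, were also neither. The 2 higher members were Ctgf, at 30.2 and 61.5 FPKM, and Cyr61, at 52.9 and 111.2 FPKM, both just past 2-fold.

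Epidermal genes were the group with the highest median, 1.84 on the log2 scale, with 7 of 12 higher in +dox, 2 lower and 3 neither. The shares were 58.3% higher and 16.7% lower, against 6.67% and 11.1% of all genes. Krtdap, a secreted protein of differentiating keratinocytes on chromosome 7 (30787896 to 30791097), was at 3.72 FPKM in –dox and 137.1 FPKM in +dox, 36.8-fold higher. Of the keratins of basal and activated epidermis, 3 were higher, Krt14 at 1.61 and 9.07 FPKM, Krt16 at 0.167 and 7.35 FPKM, and Krt17 at 0.464 and 14.4 FPKM. The others were not, with Krt15 at 1.22 and 0.826 FPKM, Krt5, the partner of Krt14, at 0.0287 FPKM in –dox and listed at 0 in +dox, Krt6a at most at 0.153 FPKM and Krt6b listed at 0 in both. Perp, a desmosome protein that p53 and p63 induce, was at 63.5 and 181.6 FPKM. Trp63, the gene of p63, the master factor of stratified epithelium, was not among the higher genes, at 1.73 FPKM in –dox and 0.375 FPKM in +dox. Sprr1a was at 8.67 and 3.16 FPKM. Of the 22 genes in the list, 10 stayed under 1 FPKM, and 4 in –dox and 6 in +dox were listed at 0. In +dox, 4 of the 7 reached 10 FPKM.

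Keratins of simple epithelia were lower. Krt8 was at 1227 FPKM in –dox and 594.9 FPKM in +dox, its partner Krt18 at 2071 and 901.0 FPKM, Krt19 at 513.4 and 150.3 FPKM, and Krt7 at 157.6 and 65.9 FPKM. Other epithelial genes were mostly level, with 3 of 27 higher, 5 lower and a median log2 ratio of 0.20. The shares were 11.1% higher and 18.5% lower, against 6.67% and 11.1% of all genes. Cdh1, the E-cadherin, was at 155.9 and 144.1 FPKM, and Epcam at 130.2 and 209.9 FPKM. Cdh3, the P-cadherin, was at 21.9 and 4.91 FPKM. Pkp1, a plakophilin of stratified epithelium, was at 0.0201 and 4.05 FPKM.

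Beside Krtdap, the genes with at least 10 FPKM and the largest ratios were led by Ly6g6c, a surface protein of the Ly6 family on chromosome 17 (35065388 to 35070050). It was at 0.529 FPKM in –dox and 33.5 FPKM in +dox, 63.4-fold higher. Mt4, a metallothionein of stratified squamous epithelium, was at 0.907 and 47.1 FPKM, 51.9-fold higher. Fetub, a secreted protease inhibitor, was at 1.80 and 63.9 FPKM, Anxa8, an annexin, at 1.93 and 62.7 FPKM, and Fam25c at 1.68 and 44.0 FPKM. Among the rest of the 15 largest ratios were Krt17, described above, and Cd109, Pde9a, Msln, Tesc, Pdzk1ip1, Pi16 and Hopx. The last 7 were between 9.20-fold and 13.7-fold higher, and their values in +dox lay between 10.6 and 29.9 FPKM. Of 6 Ly6 genes at 1 FPKM or more, 4 were higher, Ly6a, Ly6g6c, Ly6g6d and Ly6g6e, and 0 lower, a family looked at after the values were seen.

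The largest falls in ratio were those of Ppbp, a platelet chemokine also known as CXCL7, at 13.1 FPKM in –dox against 0.0556 FPKM in +dox, and Sst, the hormone somatostatin, at 11.2 and 0.126 FPKM. Steap4, a metalloreductase, was at 15.2 and 0.211 FPKM. Pparg, the nuclear receptor of fat cells that the placenta also needs, was at 22.8 and 0.761 FPKM, 30.0-fold lower. Serpinb9g, Serpinb9e, Isg15, Hand1, Ldoc1 and Plac1, described above, were among the 15 lowest ratios. The others were Ifi27, an interferon-induced gene, Chil1, Cmklr1, Batf3 and Lgals3bp, between 18.8-fold and 23.8-fold lower. The noncoding gene 1600025M17Rik was at 12.9 FPKM in –dox and was listed at 0 in +dox. In cells re-seeded after 48 h without dox, all 16 of these genes were at or below the 5.90 FPKM of Isg15, with Ppbp at 0.452 FPKM and Pparg at 0.307 FPKM.

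By the difference in FPKM, the largest rises were those of the metallothioneins Mt2, at 3561 FPKM in –dox against 7766 FPKM in +dox, and Mt1, at 1226 and 2602 FPKM, which bind zinc and copper. Cryab, a small heat shock protein, was at 185.8 and 621.2 FPKM, Txnip, a regulator of glucose uptake, at 232.7 and 586.8 FPKM, and Ube2c, of the anaphase-promoting complex, at 213.5 and 531.5 FPKM. Slc25a5, Cd9, Podxl, Gsto1 and the noncoding 2410006H16Rik completed the 10 largest rises. After H19, Peg10, Krt18, Krt8, Krt19 and Igf2, the 10 largest falls held Mdk, the growth factor midkine, at 1525 and 355.3 FPKM, and Lgals1, a galectin, at 1237 and 231.6 FPKM. They also held Igfbp2, at 626.9 and 300.1 FPKM, and Sin3b, a corepressor, at 468.2 and 197.2 FPKM.

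Genes of other lineages differed in both directions, and many were under 1 FPKM. For each list here and below, the shares over all 12688 genes are 6.67% higher and 11.1% lower, and larger among low values. Of 24 genes of primitive streak and mesoderm, 3 reached 1 FPKM, with Cdx1 and Pdgfra lower and Fgf8 neither. Of 16 endoderm genes, 6 were lower and 1 higher. Sox17 was at 6.84 FPKM in –dox against 1.01 FPKM in +dox, and Lama1, a laminin of basement membrane, was higher, at 6.17 and 16.2 FPKM. Of 16 neurectoderm genes, 7 were lower and 3 higher. Irx3 was at 20.96 and 3.10 FPKM and Tubb3, a neuronal tubulin, at 31.7 and 7.38 FPKM, against Sox21 at 0.678 and 5.57 FPKM and Pax6 at 2.23 and 4.63 FPKM. With the higher value at 10 FPKM or more, 2 of the 7 lower neurectoderm genes remained. Of 11 germline genes, 5 were lower and 0 higher, none above 3 FPKM. Of all genes whose higher value lay between 1 and 2 FPKM, 28.7% were lower, and of those between 2 and 5 FPKM, 20.7%.

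Of 7 endothelial genes at 1 FPKM or more, 3 were lower and 2 higher, with Cdh5, the VE-cadherin, at 13.1 and 0.776 FPKM and the receptor Tek at 0.360 and 3.15 FPKM. Of 7 blood and myeloid genes, 5 were lower and 1 higher. Csf1r was at 5.83 and 0.811 FPKM, the embryonic globin Hba-x at 5.02 and 0.183 FPKM, and Cd68, a lysosomal protein, was higher, at 16.2 and 47.3 FPKM. The embryonic globin Hbb-bh1 was at 5.30 FPKM in –dox and listed at 0 in +dox. Collagens were lower in 9 of 19 cases, most of them in the fibroblast list, and higher in 0.

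Among signalling genes, targets of ERK were higher in 4 of 12 cases and lower in 0, a median log2 ratio of 0.63. The list holds inhibitors of the pathway and also the Etv transcription factors. Etv5, given above with the formative genes, was 1 of the 4. Over all genes, 6.67% were higher and 11.1% lower. Spry4, an inhibitor of receptor signalling, was at 0.361 FPKM in –dox and 5.76 FPKM in +dox, Dusp4, an ERK phosphatase, at 4.63 and 15.3 FPKM, and Spry1 at 7.02 and 16.5 FPKM. Immediate early genes were lower in 5 of 17 cases and higher in 1. Fos was at 27.7 and 6.04 FPKM and Atf3 at 32.3 and 13.0 FPKM, against Nr4a1 at 7.05 and 29.6 FPKM. Of 14 genes of LIF signalling, 5 were lower and 1 higher, with the shared receptor subunit Il6st at 35.5 and 13.9 FPKM, Lifr at 4.33 and 1.67 FPKM, and Bcl3 at 39.8 and 11.4 FPKM. Socs3, the feedback target of STAT3, was at 32.6 and 20.3 FPKM, and Pim1 was higher, at 28.2 and 66.2 FPKM.

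Of 17 BMP genes, 5 were lower and 1 higher, with the target Id3 at 320.9 FPKM in –dox and 99.5 FPKM in +dox, while Id1 was level, at 275.0 and 273.4 FPKM. Of 19 Wnt genes, 6 were lower and 2 higher, with the secreted inhibitor Dkk1 at 31.0 and 5.10 FPKM. Of 14 genes of Nodal and TGF-beta signalling, 4 were lower and 3 higher, and the Nodal inhibitors Lefty1, at 1.32 and 4.54 FPKM, and Lefty2, at 0.642 and 4.29 FPKM, were among the latter. Of 14 retinoic acid genes, 6 were lower and 1 higher, with the receptor gene Rarb at 5.71 and 0.251 FPKM and the degrading enzyme Cyp26a1 at 2.61 and 7.38 FPKM. Notch genes were split, with 3 of 13 lower and 2 higher, and Notch1 itself was at 3.43 and 10.8 FPKM. Of 10 carbonic anhydrase genes, 3 were lower and 1 higher, with Car4 at 412.3 and 146.5 FPKM. Of 21 integrin and laminin genes, 5 were lower and 3 higher.

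Most genes of growth and division differed by less than 2-fold. Of 29 proliferation genes, 3 were higher, 1 was lower and 25 were neither, with a median log2 ratio of 0.43. Top2a was at 160.6 FPKM in –dox and 257.2 FPKM in +dox, Aurkb at 33.2 and 75.4 FPKM, and Tyms, of thymidine synthesis, was the lower member, at 52.4 and 24.1 FPKM. The D-type cyclins Ccnd1, at 3.71 and 19.3 FPKM, and Ccnd2, at 4.22 and 19.4 FPKM, were higher, and the inhibitor genes Cdkn2a, at 28.0 and 12.7 FPKM, and Cdkn2b were lower. The inhibitor gene Cdkn1a (p21) was higher, at 55.3 and 139.5 FPKM. It is 1 of 3 p53 targets of 24 that were higher, with Perp and Pmaip1, and 0 were lower.

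Of 30 genes of ribosome biogenesis linked to MYC, 2 were higher and 1 lower, of 24 glycolysis genes 1 was higher and 0 lower, and of 22 genes of cholesterol synthesis 4 were higher and 0 lower. Their medians were 0.19, 0.35 and 0.37. None of the 28 genes of chromatin and DNA methylation differed by 2-fold, and Dnmt3a, at 40.8 and 20.8 FPKM, came closest. Of 15 housekeeping genes, 14 were neither and Tfrc, the transferrin receptor, was lower, at 53.1 and 13.9 FPKM.

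Both re-seeded conditions were also set against other times. Counting only differences in which the larger value reached 1 FPKM, 857 of the 1404 lower genes, 61.0%, were in –dox at least 2-fold above the 96 h cells from which the cultures came, and 103, 7.34%, were in +dox. At least 2-fold below the 96 h cells were 39 of them in –dox and 368 in +dox. Over all genes at 1 FPKM or more in the larger value, –dox had 1612 of 13022 above and 1459 below. In +dox these were 973 and 1338 of 12730. The highest of all 15 conditions was 96 h –dox for 819 of the lower genes, 58.3%, and for 2569 of all 12688 genes, 20.2%. Of the 846 higher genes, 352 were in –dox at least 2-fold below the 96 h cells, 41.6%, and 305 were in +dox at least 2-fold above them, 36.1%. Since the genes were chosen by the same –dox and +dox values, these counts describe the lists and test nothing.

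**Figure D5:**
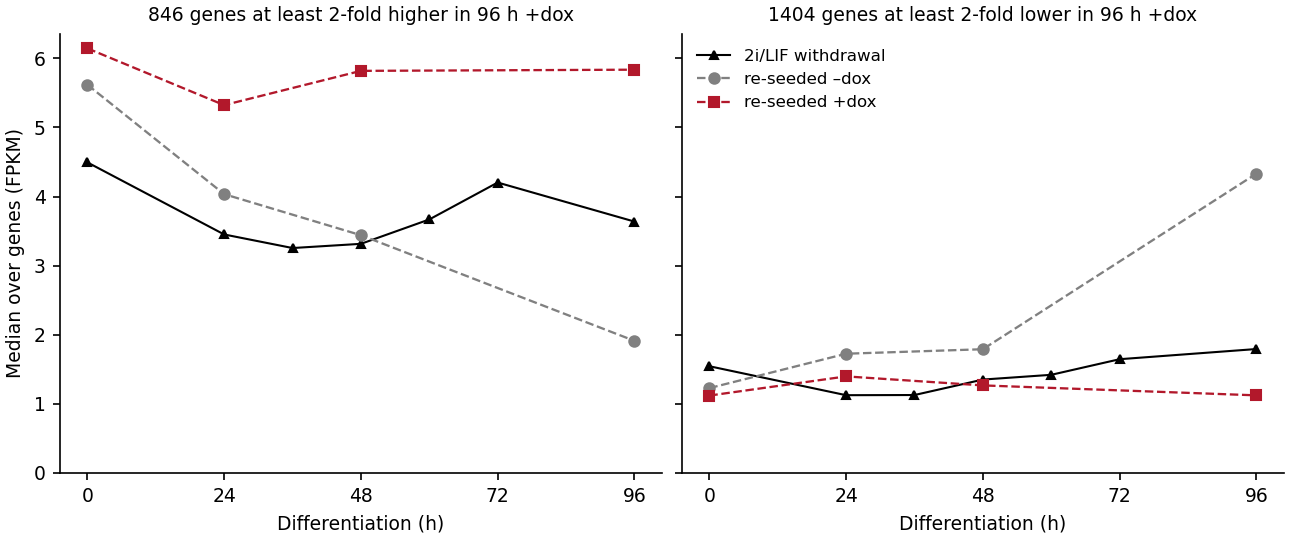
Median FPKM (y axis, linear from 0) over the 846 higher genes (left) and the 1404 lower genes (right) by hours of differentiation (x axis), in the withdrawal time course (black triangles), in re-seeded cells without dox (grey circles) and with dox (red squares). The 96 h –dox point of the lower genes, 4.33 FPKM, stands above their 14 other medians, and the 96 h –dox point of the higher genes, 1.91 FPKM, stands below theirs.

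Compared with undifferentiated cells, 402 of the 846 higher genes, 47.5%, were in +dox within 2-fold of their value at 0 h of the time course, and 282, 33.3%, were in –dox. Of the lower genes, 492 (35.0%) were within 2-fold of 0 h in +dox and 352 (25.1%) in –dox, and in +dox 451 stood at least 2-fold above and 477 at least 2-fold below. For all 12688 genes the shares were 68.4% in +dox and 63.7% in –dox. The fibroblast genes that were high at 0 h, given above, enter these shares.

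Cells re-seeded after other times have their own –dox and +dox samples and share none with 96 h. After 48 h, 831 genes were higher and 818 lower, 6.56% and 6.46% of the genes tested. Of these, 222 higher and 318 lower genes were so after 96 h too. The 222 are 26.2% of the higher genes at 96 h and 26.7% of those at 48 h, and the 318 are 22.6% and 38.9% of the lower ones. After 24 h, 365 genes were higher and 432 lower, 2.87% and 3.4% of the genes tested, and 70 and 150 of them were so at 96 h. After 0 h, 462 were higher and 715 lower, 3.62% and 5.61%, and 88 and 101 of them were so at 96 h. For 495 of the higher genes at 96 h, 58.5%, and 857 of the lower, 61.0%, no 2-fold difference was called after 0, 24 or 48 h. These counts include genes that were too low to be called at some of those times. Most of all genes tested had no call at each of those times, and their share over all 3 was not computed. The counts therefore do not mark a response particular to 96 h. Of the 657 higher genes that reached 1 FPKM at all 3 of them, 377 (57.4%) had no call there, and of 720 such lower genes, 399 (55.4%). At none of the 3 times did 62 of the higher and 341 of the lower genes reach 1 FPKM.

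After all 4 times, 15 genes were higher in +dox and 12 lower. Among the higher were Krtdap, Gad1, which makes the transmitter GABA, Cd109, the water channel Aqp3 and Dpysl3. In +dox Krtdap was at 13.1 FPKM after 0 h, 34.0 FPKM after 24 h, 99.03 FPKM after 48 h and 137.1 FPKM after 96 h, and in –dox it lay between 2.17 and 3.72 FPKM. Among the lower were H19, Hand1, Id3, Car4, Lef1 and Irgm1. In –dox H19 was at 188.8 FPKM after 0 h, 1256 FPKM after 24 h, 759.0 FPKM after 48 h and 11602 FPKM after 96 h, and in +dox at 65.6, 166.3, 160.8 and 2214 FPKM.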

How the data were processed

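Polyadenylated RNA of mouse secondary iPSCs was sequenced in 30 samples, 15 conditions with 2 replicates each. Per the paper's methods and the submitters' processing notes, the authors mapped reads to mm10 with TopHat2 2.0.14, quantified Gencode M4 transcripts with Cufflinks 2.2.1 and ran Cuffdiff, whose library normalization is not given in the sources used here. The deposited table, named for RPKM and described as FPKM, holds 1 FPKM value per gene and condition with replicates combined. Its other columns are the authors' calls of response to dox, which were not used.

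Genes were kept if either re-seeded 96 h condition reached 1 FPKM, and a gene was called higher or lower at a plain ratio of at least 2. Log2 ratios had nothing added and leave out genes at 0. Counts, medians and sums over 39 gene lists were computed with Python 3.11.15, numpy 2.4.6 and pandas 2.3.3. Only the 2-fold calls and the median-ratio scaling were tested on simulated data, in which the lowest values were not changed. Precision is limited by the missing counts and replicates, so no test was run. The members and lists were chosen with earlier results of these data known, and the lists were written from general knowledge of mouse genes. Named genes are the OSKM genes, list members, the 15 largest and 15 smallest ratios with at least 10 FPKM, the 10 largest rises and falls in FPKM, genes changed after all 4 times and genes of opposite sign after 48 and 96 h. Others are marked, and some genes that the rule names are not reported here. Gencode M21 (mm10) gave the positions and held 94.7% of the symbols. Promoters came from RefSeq. The 27 genes whose symbols had turned into dates were counted and not named.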

Additional observations from a re-analysis of the deposited data

Results flagged for a closer look

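These 9 genes were at least 2-fold different in opposite directions after 48 and 96 h, with 10 FPKM or more in the larger value at both times. The difference between the times was not tested, since each condition has 1 combined value. Crabp1, a carrier of retinoic acid, had a log2 ratio of +dox to –dox of -2.56 after 96 h (45.8 and 7.79 FPKM) and 2.19 after 48 h. Cdh3 had -2.16 after 96 h, and after 48 h it was at 6.59 FPKM in –dox and 18.6 FPKM in +dox. Nid1, a protein of basement membrane, had -1.79 after 96 h and 1.05 after 48 h. Spp1, the secreted protein osteopontin, had -1.24 after 96 h and 1.61 after 48 h. Dlc1, a GTPase-activating protein, had -1.03 after 96 h and 1.84 after 48 h. Pdzk1ip1 had 3.27 after 96 h (3.09 and 29.9 FPKM) and -1.22 after 48 h. Gm10800 had 1.46 after 96 h and -1.64 after 48 h, Tnnc1, a troponin, 1.07 and -1.09, and Thbs1, a thrombospondin, 1.02 and -1.72. In all, 25 of the genes higher after 96 h, 2.96%, were lower after 48 h, where 6.46% of all genes tested were lower. Of the genes lower after 96 h, 73, 5.20%, were higher after 48 h, where 6.56% of all genes tested were higher. Only 731 of the 846 higher and 961 of the 1404 lower genes reached 1 FPKM after 48 h. The rest could not be called there, so these shares and those of all genes rest on unlike sets.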

How the results depend on the processing

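No paired analysis was possible because the table holds 1 combined value per condition, and no replicate could be left out for the same reason. Against 846 higher and 1404 lower genes, there were 2268 and 4195 without a minimum, 465 and 622 with a minimum of 5 FPKM, 314 and 403 with 10 FPKM, and 529 and 740 with 1 FPKM in both values. There were 507 and 851 with 1 FPKM added to both values, 1937 and 2454 at 1.5-fold, and 325 and 781 at 3-fold. With 0.1 FPKM added, or with scaling by the median ratio or to an equal total, both counts stayed within 1.5 times of the main ones. More genes were lower than higher under each of these settings. The median log2 ratio of -0.01 became -0.20 with equal totals, 0.0004 with median-ratio scaling and 0.0354 with a minimum of 10 FPKM. Of 222 list members that differed by at least 2-fold, 99 remained with 10 FPKM. The medians of 4 lists changed sign between scalings: OSKM, naive pluripotency, contractile and housekeeping. The shares of 96 h genes called the same way after 48 h, 26.2% of higher and 22.6% of lower genes, became 22.1% and 17.5% with 1 FPKM added and 15.6% and 19.9% with a minimum of 10 FPKM. The shares within 2-fold of 0 h in +dox, 47.5% and 35.0%, became 56.7% and 63.1% with 1 FPKM added. With 0 h –dox as the undifferentiated cells they were 48.9% and 34.5%. The cause of these shifts was not tested.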

Other observations

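Long noncoding and processed transcripts numbered 559 at 1 FPKM or more, of which 98 (17.5%) were higher and 92 (16.5%) lower in +dox, against 6.03% and 10.9% of 11532 protein-coding genes. Their lower levels, at which 2-fold differences are more frequent among all genes, were not matched in this comparison. Families looked at by symbol after the values were seen were lower in 9 of 14 semaphorins, 6 of 8 matrix metalloproteinases and 5 of 6 Irx genes with at least 1 FPKM, and higher in 0 of each. Of 6 Igfbp genes, 4 were lower and 1 higher. Other families looked at in this way went higher or both ways. Of 6 Klk genes, 3 were higher and 1 lower, as were 3 and 1 of 6 Elovl genes. Of 10 Anxa genes, 1 was higher and 3 lower. Over all genes, 6.67% were higher and 11.1% lower.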
